A study of Caenorhabditis elegans with 9 samples.

Results

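Broad EGL-5 binding regions outside dense runs numbered 365 of the 4688 peaks in the combined list of a ChIP-seq study of C. elegans larvae. They were selected on called width, 900 bp or more, and on spacing. A run joined neighbouring peaks on a chromosome whose midpoints lay at most 5000 bp apart, and peaks in runs of 5 or more were left out. Width is a measured value, so the members' widths and the q values of the same list are described here and not tested. The 3916 narrower peaks outside such runs served for comparison. Of all combined peaks, 410 (8.75%) were 900 bp or wider, and 45 of those lay in dense runs.

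All libraries came from L3 hermaphrodites of strain OP54, an unc-119(ed3) III background with the transgene wgIs54, which carries unc-119(+) and egl-5 tagged with TY1, EGFP and 3xFLAG. The transgene was made by recombineering and biolistic transformation, and the labels describe its expression as following the normal egl-5 pattern. Chromatin was collected with a goat antibody against GFP in 4 ChIP libraries, 2 of each replicate, and 5 input libraries were all titled replicate 2. The deposited data were 3 peak lists, combined, replicate 1 (2420 peaks) and replicate 2 (1345 peaks), with a q value for each peak and no read counts. The depth of the libraries is therefore unknown, and nothing states whether the replicates came from separate cultures, so differences between them may be technical.

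EGL-5 is a Hox protein of the Abdominal-B class. Hox proteins are homeodomain transcription factors that give cells their identity along the body axis, and egl-5 acts in the posterior, where it patterns tail epidermis, muscle and neurons. A homeodomain contacts only a few base pairs of DNA. The width of a called region is therefore not the size of one site. What set the width was not tested, and 157 of the 365 members were 900 bp or wider only in the combined list. Whole larvae were used, so few cells bound strongly and many cells bound weakly cannot be told apart. Positions are on WormBase WS190, for which no genome or gene annotation was used here, so regions are named by coordinates and no gene is assigned to them.

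The 365 regions had a median width of 1192 bp, with quartiles of 1000 and 1687 bp and a range of 900 to 9983 bp. The narrower peaks had a median of 365 bp. Most members stood close to the threshold: 91 were under 1000 bp, 159 between 1000 and 1500 bp, and 62 were 2000 bp or wider. As 7.79% of the combined peaks, the members held 555 kb, or 24.2% of all bases in the combined list. The narrowest members, all 900 bp wide, lay on chromosome I from 39679 to 40578 and from 5377293 to 5378192, and on X from 12889562 to 12890461. Just outside the threshold, peaks of 899 bp on X (7334164 to 7335062) and 898 bp on V (1151244 to 1152141) and I (5871324 to 5872221) were left among the narrower ones. Width was thus continuous across 900 bp, and the threshold did not separate distinct groups.

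**Figure D1:**
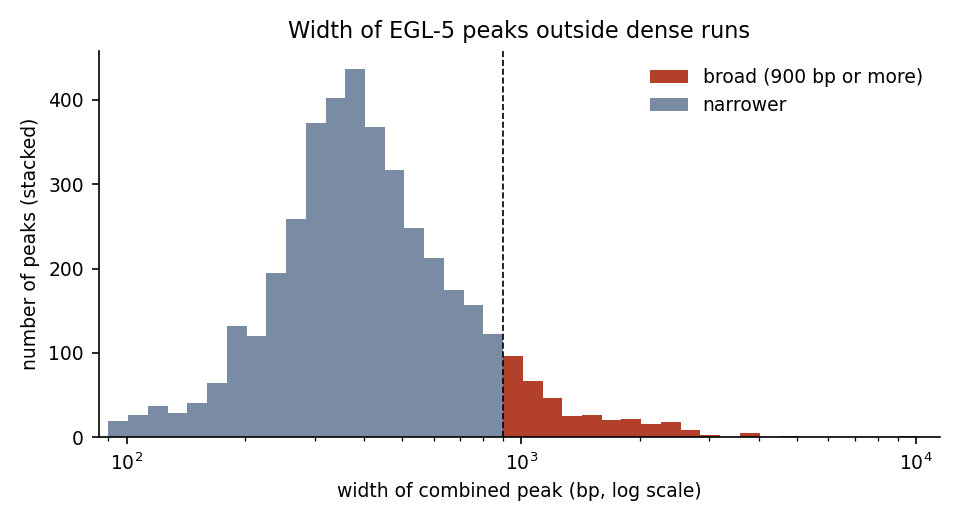
Number of combined peaks outside dense runs by width in bp (log scale), with the 365 broad regions in red, the narrower peaks in blue-grey and the 900 bp threshold as a dashed line. The counts fall smoothly through the threshold, and the 185 narrower peaks under 90 bp lie to the left of the axis and are not drawn.

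The widest region was on chromosome II, from 10544367 to 10554349 (9983 bp, q = 4.09e-14). Replicate 1 had 1 peak of 4279 bp inside it and replicate 2 had 1 peak of 2999 bp. These pieces were displaced from each other, shared 1619 bp and left 4324 bp of the region in neither list. The second widest, on X from 6736367 to 6745911 (9545 bp, q = 6.40e-21), held 2 peaks of each replicate. Its lowest q was 3.97e-14 in replicate 2, in a peak of 5030 bp, and 0.000392 in replicate 1, and the midpoints of those 2 peaks lay 4910 bp apart. The replicates thus placed their leading peaks at different places in this region.

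Chromosome V held 5 of the 10 widest regions, 57 of all 365 members (15.6%) and 15.0% of all combined peaks. The region from 6223755 to 6231280 (7526 bp, q = 3.61e-37) was a single peak of 6900 bp in replicate 1 and 3 peaks of 2250, 2465 and 753 bp in replicate 2. Replicate 1 covered 91.7% of it and replicate 2 covered 72.7%, so nearly the whole region was found in at least 1 list. A region of 6289 bp, from 10718574 to 10724862 (q = 1.43e-23), was divided into 2 peaks by each replicate. The replicate 1 pieces ended at 10720607 and resumed at 10720867, and those of replicate 2 ended at 10720161 and resumed at 10721936, so the shorter gap lay within the longer one. The region from 723802 to 728358 (4557 bp, q = 2.70e-07) lay near the left end of the chromosome and was found by replicate 2 only, in 2 pieces that covered 90.2% of it. The other 2 regions, of 3981 and 3877 bp, were found by both replicates, and the second of these was 1 peak in replicate 1 and 3 peaks in replicate 2.

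The remaining 3 of the 10 widest lay on II, X and I. On II, the region from 8743018 to 8748355 (5338 bp) was found by replicate 2 only, as 1 peak of 3865 bp. The q of that replicate 2 peak was 3.04e-14, lower than the 2.20e-08 of the combined region. On X, the region from 8017140 to 8022136 (4997 bp, q = 2.97e-22) held 2 peaks of each replicate. Replicate 1 covered 94.6% of it and replicate 2 covered 36.6%. On I, the region from 9379942 to 9384055 (4114 bp, q = 6.29e-28) had 1068 bp in both lists, a further stretch to the left of these in replicate 1 alone, and 2006 bp in neither.

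**Figure D2:**
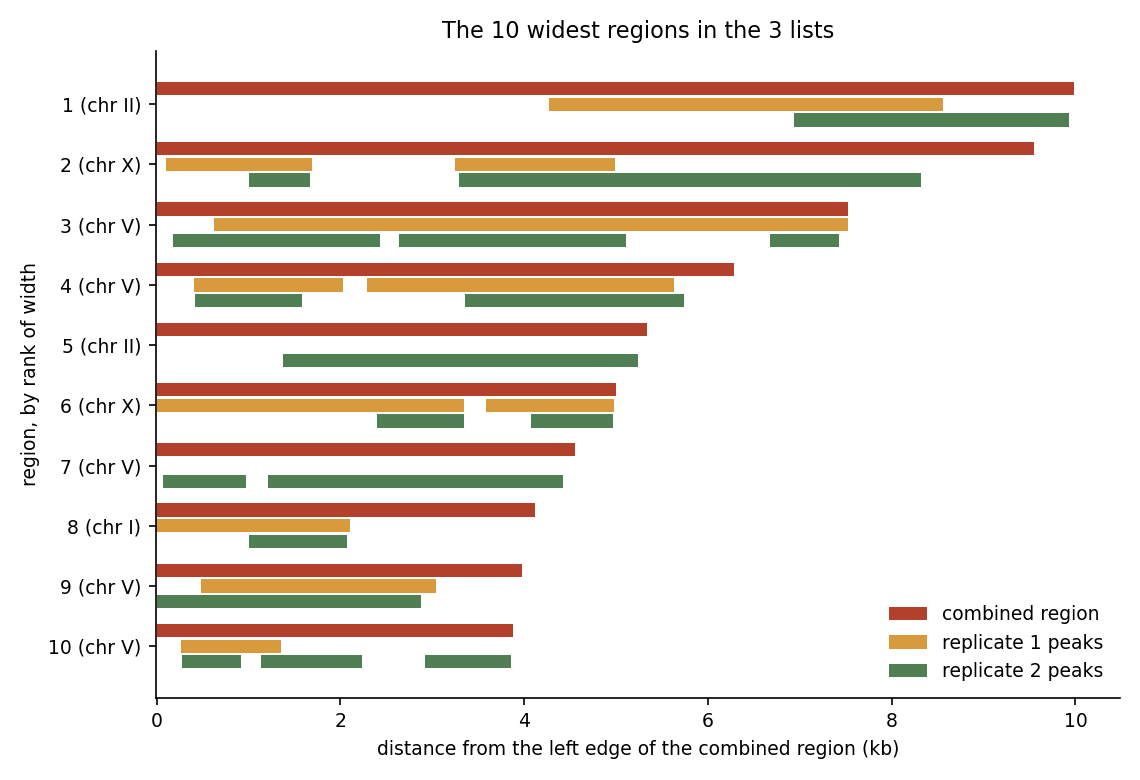
The 10 widest regions, ranked from the top, drawn as distance in kb from the left edge of the combined region, with replicate 1 and replicate 2 peaks beneath each. Regions 5 and 7 have no replicate 1 peak, and region 3 is 1 peak in replicate 1 and 3 in replicate 2.

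Among members of lowest q, the first lay on chromosome III from 7822609 to 7824800 (2192 bp, q = 3.94e-102). It lay beside a dense run of 5 combined peaks, all broad, between 7803016 and 7820619. The edge of the nearest was 1989 bp away, but their midpoints were more than 5000 bp apart, which kept this region outside the run. Its q was 5.90e-65 in replicate 1 and 4.24e-58 in replicate 2. The strain carries egl-5 on a transgene. No gene was assigned to this region, and whether reads from the transgene lowered the q of any region was not tested. The next member, at 6223755 on V, was the 7526 bp region described above, followed by X from 16929306 to 16932008 (2703 bp, q = 2.77e-30). This X region was found almost whole in both lists, covered to 99.6% by replicate 1 and 96.9% by replicate 2. Its q was 2.25e-07 in replicate 1 and 2.35e-24 in replicate 2.

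Chromosome I held 4 of the 10 members of lowest q, at 6893075 to 6894754, 9379942 to 9384055, 5311180 to 5313873 and 7491643 to 7493256. It held 16.2% of all 365 members and 23.2% of all combined peaks. Each of the 4 regions had a lower q in replicate 1 than in replicate 2 or no replicate 2 peak. The region at 5311180, for example, was 2469 bp wide in replicate 1 (q = 8.09e-13) and absent from the replicate 2 list. Besides the 6289 bp region of chromosome V described above, the others of the 10 were 1063 bp on III from 8416901 to 8417963 and 2479 bp on IV from 14032425 to 14034903. On III the q values of the replicates were alike, 1.31e-12 in replicate 1 and 1.01e-12 in replicate 2. On IV they were 1.65e-07 in replicate 1 and 6.57e-14 in replicate 2.

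Over all 365 members, the median q was 1.81e-06, against 0.00052 for narrower peaks. On the −log10 scale the medians were 5.74 for broad and 3.28 for narrower peaks, with quartiles of 3.60 and 9.14 for broad and 2.49 and 4.72 for narrower peaks. The distributions overlapped widely. Across the members alone, width and −log10 q were weakly related (Spearman's rho 0.26 over 365 regions of the same list). Median −log10 q was 4.84 at 900 to under 1200 bp, 5.21 at 1200 to under 2000 bp and 9.11 at 2000 bp and over. Each of the 10 widest had a q of 2.70e-07 or lower. Some wide regions outside those 10 still had a q near the limit of the list. The widest member of chromosome III, 9700950 to 9704752 (3803 bp), had q = 0.00351 and no peak of either replicate. The widest member of chromosome IV, 14611768 to 14614597 (2830 bp), had q = 0.00215 and 1 replicate 2 peak of 706 bp (q = 0.00514). A wide call was therefore not always a strong one.

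How the broad regions were spread over the chromosomes was examined next. X held the most, 87 of 365 (23.8%, 95% Wilson interval 19.7 to 28.5), or 5.01 per Mb of the span covered by peaks. Among the narrower peaks 779 of 3916 (19.9%) lay on X. The difference was 3.94 percentage points (95% Newcombe interval −0.337 to 8.73), an interval that includes 0. It excluded 0 where all runs of 3 or more were left out, with 6.57 points (1.28 to 12.5), and in the replicate 1 list, with 8.07 points (2.21 to 14.8). Under every other alternative the interval included 0. In the replicate 2 list the difference was 2.95 points (−5.17 to 12.7). Chromosomes I to V held 59, 50, 52, 60 and 57 members, with densities from 2.73 per Mb on V to 3.92 per Mb on I. All these intervals cover counting error alone and take peaks as independent, which neighbouring peaks are not. No p is given, because the peaks of a list are not replicates.

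Chromosome I was the one whose share of broad regions was below that of the narrower peaks with an interval that excludes 0. It held 16.2% of the broad regions, against 22.1% of the narrower peaks, a difference of −5.98 points (−9.64 to −1.66). Put the other way, 6.37% of peaks outside runs were broad on I, against 8.32% on IV to 10.0% on X. In the replicate 1 list this share was 6.47% on I and 7.14% to 11.8% elsewhere. In replicate 2, where chromosome I had only 133 peaks outside runs, it was 6.77% on I and 6.06% to 9.33% elsewhere, so I was not the lowest there. The difference between broad and narrower peaks was −1.25 points (−5.83 to 6.15) in that list. With members of 700 bp or more the difference was −2.71 points (−5.84 to 0.712), and among the 50% of peaks of lowest q it was −5.03 points (−9.75 to 0.403), both intervals that include 0.

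The broad regions on chromosome I had lower q than those elsewhere. Their median −log10 q was 8.94 (quartiles 5.70 and 12.0), against medians of 4.63 to 5.79 on the other chromosomes. For narrower peaks the medians were 3.49 on I and 3.16 to 3.32 elsewhere. The 4281 peaks outside runs were divided into 4 groups of equal size by q, and in the group of lowest q chromosome I held 49 of 202 broad regions (24.3%), close to its 236 of 869 narrower peaks (27.2%). In the other 3 groups pooled it held 10 of 163 broad regions (6.13%, 3.37 to 10.9), against 631 of 3047 narrower peaks (20.7%, 19.3 to 22.2). Outside the group of lowest q, broad regions were thus rare on chromosome I in this list, while narrower peaks were not. Those 3 groups reach down to q = 9.81e-06, and their pooling was not among the planned comparisons. The share of broad regions on X was 28.1%, 31.4%, 26.2% and 20.3% from the highest to the lowest q, and that of narrower peaks 20.1%, 21.7%, 19.3% and 18.2%. Median widths of the members differed little between chromosomes, from 1137 bp on IV to 1293 bp on V.

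**Figure D3:**
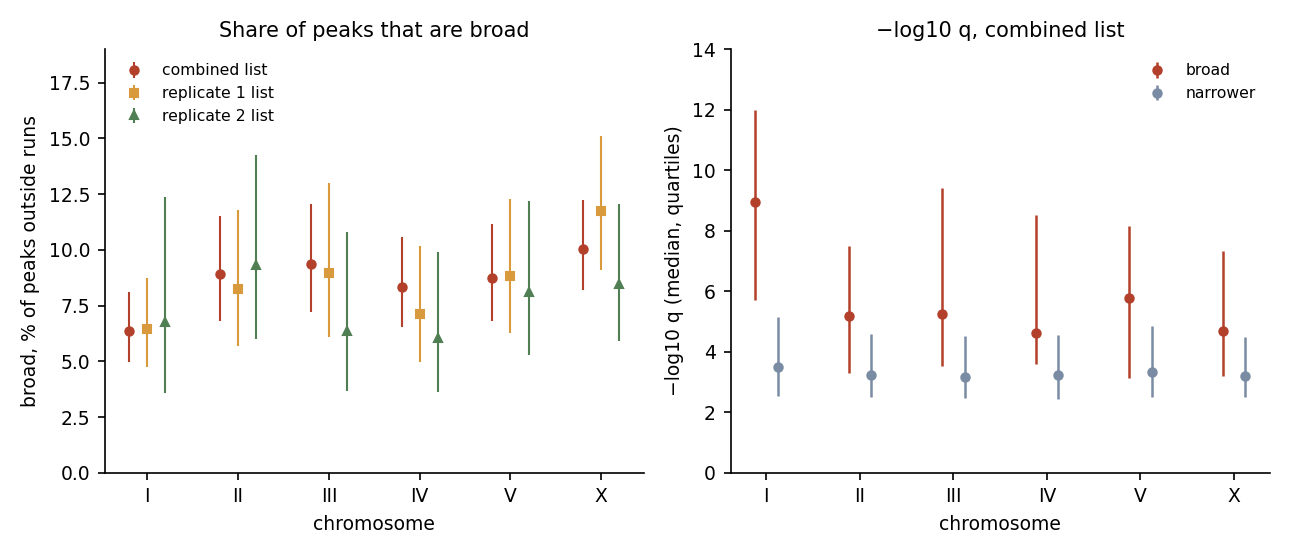
Left, percent of peaks outside dense runs that are broad on each chromosome, with 95% Wilson intervals, in the combined, replicate 1 and replicate 2 lists. Right, median and quartiles of −log10 q in the combined list for broad and narrower peaks, where the broad regions of chromosome I stand highest at 8.94.

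Position along the chromosomes was compared next. In C. elegans the autosome centres are rich in genes and the arms in repeats, while X lacks so clear a division. On the autosomes 137 of 278 broad regions (49.3%, 43.4 to 55.1) lay in the central 33.3% of the span, against 1337 of 3137 narrower peaks (42.6%, 40.9 to 44.4). The difference was 6.66 points (0.579 to 12.8). It was positive on each of the 5 autosomes, from 1.49 points on III to 9.48 points on I, but every single-chromosome interval included 0. The pooled interval also included 0 with members of 700 bp or more (2.97 points, −1.63 to 7.62) and without chromosome I (5.57 points, −1.29 to 12.5). With members taken from a replicate list it was 10.9 points in replicate 1 (2.59 to 19.2) and 14.8 points in replicate 2 (2.89 to 25.9). On X the shares were 33.3% of broad and 33.5% of narrower peaks. Mappability was not measured.

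By count the excess was not the same on both sides of the centre, and this was not tested. With each span cut into 5 equal parts, the broad regions on autosomes held 11.2%, 18.0%, 28.8%, 29.9% and 12.2% from left to right, and the narrower peaks 14.8%, 22.2%, 27.4%, 21.5% and 14.1%. The fourth part was thus where broad regions stood farthest above narrower ones, with 83 of 278 (24.8 to 35.5%) against 676 of 3137 (20.1 to 23.0%). It is named because of its value among the 5 parts. On X the second part held 25 of 87 broad regions (28.7%) and the third only 12 (13.8%), but all 5 intervals of the broad regions overlapped those of the narrower peaks. By 1 Mb windows, members were 10 of 66 combined peaks between 4 and 5 Mb of X and 10 of 47 between 11 and 12 Mb. These windows are named because of their counts, and members were 7.79% of all combined peaks. Members were present in 94 of the 102 windows that held any combined peak.

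**Figure D4:**
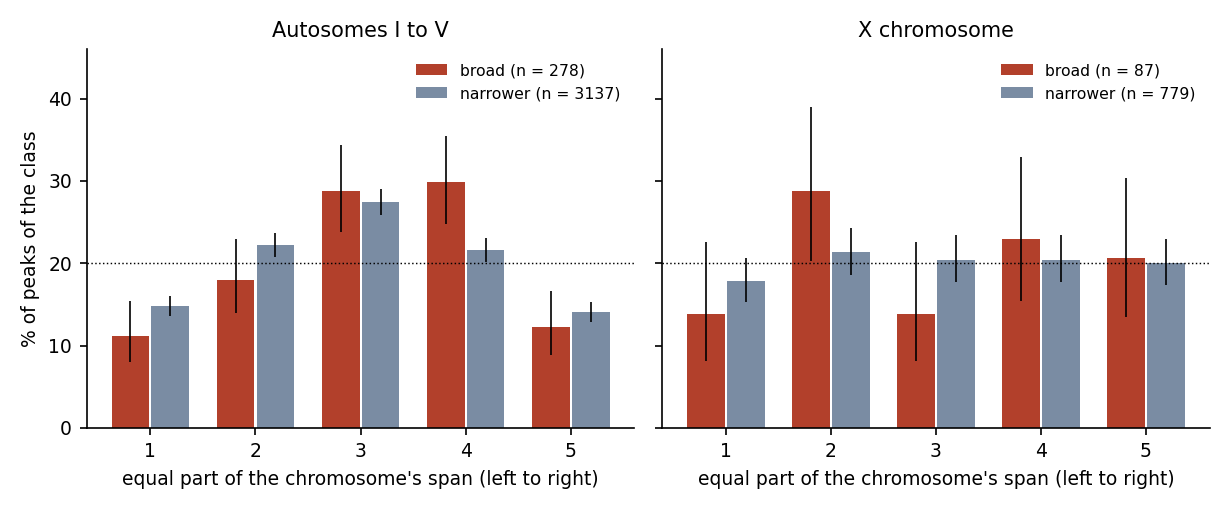
Percent of broad and of narrower peaks in 5 equal parts of the chromosome span, for the pooled autosomes and for X, with 95% Wilson intervals and a dotted line at equal shares. On the autosomes both classes are low in the outer parts, and broad regions are above narrower peaks in the fourth part.

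Broad regions lay nearer to other peaks than narrower ones did. Distances were taken from edge to edge, since width itself moves midpoints apart. Spacing was part of the rule, and at the same edge gap a broad peak has its midpoint farther from its neighbours and is less often placed in a dense run, so these values are a description. The median gap to the nearest combined peak was 1953 bp for broad regions, with quartiles of 741 and 8047 bp, and 4466 bp for narrower peaks, with quartiles of 1466 and 11749 bp. Another peak edge lay within 2000 bp of 187 of 365 broad regions (51.2%) and of 1242 of 3916 narrower peaks (31.7%), a difference of 19.5 points (14.2 to 24.8). No gap in the combined list was under 200 bp. Within 500 bp of another edge were 70 broad regions (19.2%) and 307 narrower peaks (7.84%). Whether such neighbours belong to 1 bound stretch was not tested. In the 4 groups by q, from the highest to the lowest, 50.0%, 51.0%, 38.8% and 56.4% of broad regions had an edge within 2000 bp, against 30.7%, 31.0%, 33.3% and 31.9% of narrower peaks. The nearness of broad regions was thus seen at high and at low q, with overlapping intervals in the third group.

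Runs of up to 4 peaks were allowed by the rule. Of the broad regions, 140 (38.4%) had no other midpoint within 5000 bp, against 49.4% of the narrower peaks, and 112, 74 and 39 lay in runs of 2, 3 and 4. The 365 members were spread over 325 runs, of which 140 were a single member alone and 36 held 2 or 3 members. Those 36 runs held 76 of the members. For comparison, 8.53% of all peaks outside dense runs were broad. Gaps were shortest on chromosome I, where the median for broad regions was 1068 bp, against 1218 bp on III to 4007 bp on X. The narrower peaks also lay closest on I, with a median gap of 3302 bp against 4244 to 6435 bp elsewhere. Without chromosome I the difference in near neighbours was 15.9 points (10.2 to 21.7), and in the replicate 1 list it was 11.8 points (5.39 to 18.8).

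The replicate lists found broad regions more often than narrow ones. Replicate 1 peaks overlapped 259 of the 365 broad regions (71.0%, 66.1 to 75.4), against 47.5% of narrower peaks and 49.9% of all combined peaks. Replicate 2 peaks overlapped 207 (56.7%, 51.6 to 61.7), against 24.6% of narrower peaks and 27.6% of all. Both replicates overlapped 160 broad regions (43.8%, 38.8 to 49.0), against 625 narrower peaks (16.0%, 14.9 to 17.1) and 18.9% of all. Neither did so for 59 (16.2%), against 43.8% of narrower peaks and 41.4% of all. An overlap of 1 bp was enough for these counts. With an overlap of 50% of the shorter peak the difference for both replicates was 27.6 points (22.5 to 32.8), against 27.9 points (22.7 to 33.1) with 1 bp. A wide region offers more bases to overlap, and how the combined list draws on the reads of the replicates is not stated; the part of these in the excess was not tested.

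Counted by base instead of by region, replicate 1 covered 53.2% of the bases of broad regions, against 48.1% of those of narrower peaks. Replicate 2 covered 39.8% of the bases of broad regions, against 23.7% for narrower peaks. The contrast was thus small for replicate 1 and larger for replicate 2. By point value the same held for overlap by at least 1 bp within the 4 groups by q. These groups do not compare the classes at equal q. In the group of lowest q, values reached down to 3.94e-102 for broad regions and 3.73e-32 for narrower peaks. A wide region also meets a 1 bp overlap more easily. For replicate 1, no group by q separated broad from narrower peaks beyond the interval of the difference. The 2 groups of highest q held only 32 and 51 broad regions. In the group of lowest q, replicate 1 overlapped 94.0% of narrower peaks, which leaves little room for a higher share. The shares from the highest to the lowest q, broad before narrower, were 12.5% and 10.1%, 37.3% and 30.7%, 63.8% and 63.2%, and 91.6% and 94.0%. The differences were 2.38 points (−5.40 to 18.0), 6.54 (−5.74 to 20.5), 0.518 (−10.8 to 10.7) and −2.43 (−7.28 to 1.14), each with an interval that includes 0.

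Replicate 2 overlapped more of the broad regions in each of the 4 groups. The shares, broad before narrower, were 18.8% and 2.79% in the group of highest q, then 23.5% and 8.93%, 42.5% and 26.5%, and 76.7% and 67.0% in that of lowest q. The differences were 16.0 points (6.02 to 32.5), 14.6 (4.89 to 27.9), 16.0 (5.41 to 27.3) and 9.76 (2.77 to 15.9), with intervals that exclude 0. The group of highest q held only 32 broad regions, of which replicate 2 overlapped 6. Replicate 2 found few peaks on chromosome I, so the shares were also taken without it, a comparison added after seeing the data. The differences were then 15.8, 13.6, 12.6 and 7.78 points, and their intervals still excluded 0.

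**Figure D5:**
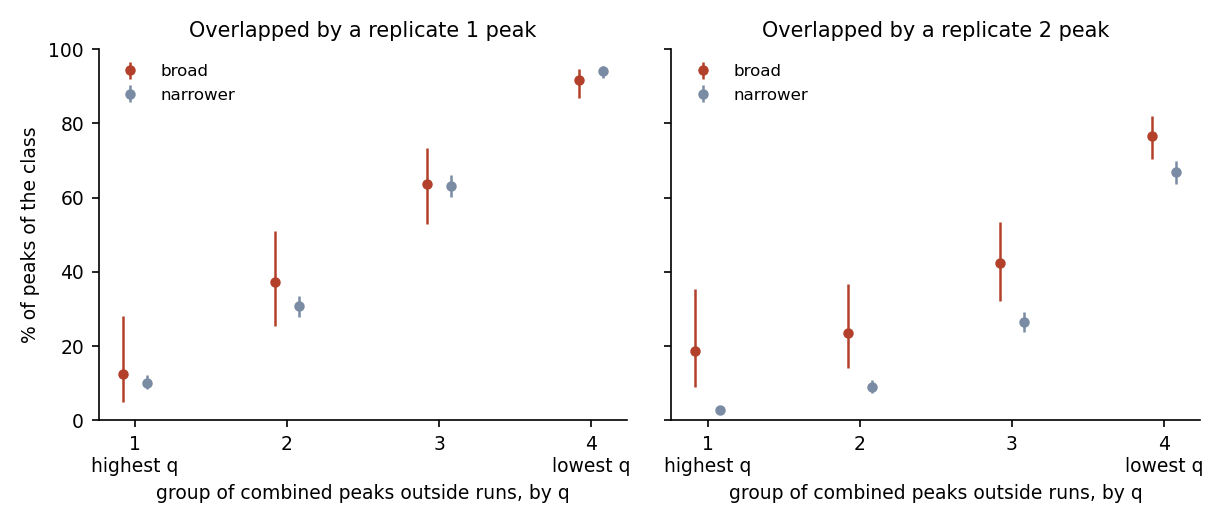
Percent of broad and of narrower combined peaks overlapped by at least 1 replicate 1 peak (left) or replicate 2 peak (right), in 4 groups of equal size by the combined q value, with 95% Wilson intervals. The intervals of the classes overlap for replicate 1, and broad regions lie above narrower peaks in each group for replicate 2.

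On chromosome I, replicate 1 overlapped 49 of 59 broad regions (83.1%, 71.5 to 90.5) and replicate 2 only 22 (37.3%, 26.1 to 50.1). On the other chromosomes these shares were 64.9% to 71.3% in replicate 1 and 55.8% to 64.9% in replicate 2. The narrower peaks were split in the same direction, with 55.1% in replicate 1 and 9.92% in replicate 2 on chromosome I, against 41.2% to 48.4% and 26.0% to 31.8% elsewhere. On V the replicates found equal numbers of broad regions, 37 of 57 each.

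The replicate lists seldom divided a broad region. Of the 259 regions in replicate 1, 11 (4.25%, 2.39 to 7.44) held 2 peaks and none held more. Of the 207 in replicate 2, 14 held 2 and 2 held 3, together 7.73% (4.81 to 12.2). Division was more frequent among the widest. Over all members, in a replicate list or not, 15 of the 62 of 2000 bp or more (24.2%) were divided in either list. Below 2000 bp it was 8 of 303 (2.64%). Regions in neither list cannot be divided. They were 4 of the 62, 15 of the 118 from 1200 to under 2000 bp, and 40 of the 185 under 1200 bp. In both lists at once 4 regions were divided. With least widths of 700, 900 and 1200 bp, the share divided was 2.37%, 4.25% and 6.82% in replicate 1 and 4.83%, 7.73% and 13.3% in replicate 2. Of the narrower peaks, 0 of 1861 were divided in replicate 1 and 0 of 964 in replicate 2, which allows shares of up to 0.161% and 0.311%. A narrow peak has little room for a pair of peaks at least 200 bp apart.

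More often the replicate held a single, shorter peak. In the 259 regions found by replicate 1 it covered a median of 86.6% of the bases (quartiles 57.0 and 96.9), and in the 207 found by replicate 2 a median of 64.8% (41.8 and 85.4). For narrower peaks the medians were 91.9% in replicate 1 and 82.7% in replicate 2. The widest replicate peak in a broad region had a median of 992 bp in replicate 1 and 820 bp in replicate 2. It reached 900 bp in 170 of 259 regions (65.6%) in replicate 1 and in 86 of 207 (41.5%) in replicate 2. In all, 208 of the 365 members held a replicate peak of 900 bp or more, and the remaining 157 were that wide only in the combined list.

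The 160 regions found by both replicates were compared base by base. Of their 274 kb, 49.2% was in both lists, 22.7% in replicate 1 only, 9.18% in replicate 2 only and 18.9% in neither. In the 625 narrower peaks found by both, 69.1% of bases was in both lists and 7.10% in neither. Each list gave a single peak in 141 of the 160 regions, and replicate 1 covered more of the region in 121. The midpoints of the replicates' peaks of lowest q lay a median of 148 bp apart (quartiles 50.4 and 318 bp) in broad regions. In narrower peaks they lay 32.0 bp apart. Width bounds this distance, and the regions found by both had median widths of 1316 bp for broad and 477 bp for narrower peaks. These midpoints were within 500 bp in 143 of the 160 broad regions. In 2 regions the replicates had no base in common.

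The combined list supplied the widths that chose the members, so each replicate list was also used to choose its own broad peaks by the same rule, and their width was read in the other replicate. Of 199 broad replicate 1 peaks outside that list's runs, 117 (58.8%) overlapped a replicate 2 peak, against 34.0% of 2159 narrower ones. The replicate 2 peak was 900 bp or wider in 53 of the 117 (45.3%, 36.6 to 54.3), against 16 of 734 narrower ones (2.18%, 1.35 to 3.51), a difference of 43.1 points (34.3 to 52.2). Its median width was 829 bp for broad and 372 bp for narrower replicate 1 peaks. Of 100 broad replicate 2 peaks, 67 were found in replicate 1 (67.0%), against 66.1% of the 1210 narrower ones, a difference of 0.884 points (−9.16 to 9.75). Of these, 53 of 67 (79.1%) were 900 bp or wider in replicate 1, against 73 of 800 (9.12%). Overlap is mutual, so the 2 directions draw on much the same pairs of broad peaks and are not separate checks. Peaks broad in one replicate list were thus more often broad in the other, among those that overlapped. The intervals take peaks as independent, and a wide partner meets the 1 bp overlap more easily, so these shares are a description. Which input each replicate was scored against is not stated, so how far the lists are independent was not tested.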

How the data were processed

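Larval ChIP and input DNA was sequenced in 9 libraries. Per the file headers, positions are on WormBase WS190, and the source column of the deposited lists names PeakSeq, which scores ChIP reads against input. Each peak carries the q-value that the authors deposited, none above 0.01. The aligner, the version and threshold of the caller, the inputs scored against and the making of the combined list were not given in the sources used here. The start and end in bp are also as deposited by the authors.

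All 3 lists were read with Python 3.11.15, NumPy 2.4.6, pandas 2.3.3 and SciPy 1.17.1, and plotted with Matplotlib 3.10.9. Peaks of 900 bp or more outside runs of 5 or more peaks were the members. Overlap meant at least 1 bp. Each chromosome's span was bounded by its outermost peaks, in all 99.7 Mb. Shares carry 95% Wilson intervals, and differences of shares 95% Newcombe intervals. Both cover counting error of peaks only, and upper limits for a count of 0 rest on 3 counts. The functions that find runs, gaps, overlaps and central positions were tested on simulated peaks. No test with a p was made: the lists hold no values per library. Regions named are the 10 widest, the 10 of lowest q, the widest of each chromosome and the 3 on each side of the threshold; others are said to be chosen after their values were seen. The members and comparisons were chosen with earlier results of these data known. Genes were not assigned, because the gene table at hand is on another build.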

Additional observations from a re-analysis of the deposited data

How the results depend on the processing

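No alternative reversed the sign of a difference; 68 of 81 recomputed values stayed within 1.5 times the main count or inside the main 95% interval. With 700 bp as the least width there were 672 members, the difference in overlap by both replicates was 22.0 points, and 2.37% of members overlapped in replicate 1 were divided there. With 1200 bp there were 180 members, that overlap difference was 33.6 points, and 13.3% of those overlapped in replicate 2 were divided there. Among the 50% of peaks of lowest q the overlap difference was 21.1 points, and with an edge within 5000 bp the difference in near neighbours was 13.5 points. Leaving out the chromosome III region of lowest q gave 364 members and an overlap difference of 27.7 points. Without that region the difference in the central 33.3% of autosomes was 6.48 points (0.389 to 12.6). Taking members from 1 replicate list in place of the combined one gave 100 to 199 members. The difference in the central 33.3% of autosomes was then 10.9 to 14.8 points, that on chromosome I −6.53 to −1.25 points, and that in near neighbours 11.8 to 18.8 points. The chromosome I interval included 0 in the replicate 2 list (−5.83 to 6.15). The central interval also included 0 with 1200 bp (−0.592 to 16.3), with runs joined at 10000 bp (−0.110 to 13.4) and among the 50% of peaks of lowest q (−0.205 to 13.8). The causes were not tested. Overlap by both replicates cannot be computed from 1 list. No paired analysis was possible because the lists hold no values per library.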

Other observations

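The 59 broad regions that no replicate list holds were mostly weak, with a median −log10 q of 2.78 and a median width of 1036 bp. Only 2 of them were among the 202 members of lowest q, and both lay in the centre of chromosome I. They were chosen for mention after their values were seen. One ran from 5374121 to 5376971 (2851 bp, q = 1.14e-09) and the other from 7656710 to 7660305 (3596 bp, q = 1.62e-09). The first lay 321 bp from a member of 900 bp at 5377293, which both replicates hold with q values of 0.00944 in replicate 1 and 0.00522 in replicate 2.

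Regions found in replicate 2 alone stood out by their q. In 19 of the 47 such broad regions (40.4%, 27.6 to 54.7) the replicate 2 peak had a lower q than the combined region, as in the 5338 bp region of chromosome II. The same was so for 32 of 339 narrower peaks found in replicate 2 alone (9.44%, 6.77 to 13.0), and for 5 of 99 broad regions found in replicate 1 alone (5.05%, 2.18 to 11.3). The broad regions of replicate 2 alone had a median width of 1264 bp, and those of replicate 1 alone 1138 bp. These counts were made after the data had been seen.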
